A study of Mus musculus with 15 samples.

Results

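The 10 genes described here belong to the BMP and TGF-beta pathway and were followed through the embryonic mouse lens. They are the ligands Bmp4 and Bmp7, the receptors Bmpr1a, Acvr1 and Tgfbr2, the target genes Id1, Id2 and Id3, and the inhibitory Smads Smad6 and Smad7. They were chosen by gene symbol, and all 10 were found among the 14615 gene symbols of the table. Each of the 10 passed the filter on low values, which left 14532 genes for testing. The RNA-seq libraries came from dissected lenses of 4 stages, E10.5 and then every second embryonic day until E16.5 (E, embryonic day), and from whole embryos, here called whole body. There were 3 libraries per group and 15 in all. Every group was wild type and of the C57BL/6NTac strain, with no treatment named. Each E10.5 library pooled 50 lenses, each E12.5 library 29, each E14.5 library 18 and each E16.5 library 17, so variation between single lenses or embryos is not seen. The whole-body libraries carry the age range E10.5 to E12.5, and how the days were combined is not given in the sources used here. Whole body is a mixture of all tissues, and against it the E14.5 and E16.5 lenses differ in age as well as in tissue. Values are FPKM (fragments per transcript length and sequenced library), which compare levels between genes per length. Each gene's value is the sum over its transcripts. The sequencing depth behind them is unknown.

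Bone morphogenetic proteins (BMPs) and TGF-beta are secreted ligands that bring together type I and type II receptors. The type I receptor then phosphorylates Smad proteins, which enter the nucleus with Smad4 and change transcription. Id1, Id2 and Id3, which encode proteins that bind basic helix-loop-helix transcription factors and keep them off DNA, are widely used readouts of BMP signalling. Smad6 and Smad7 are themselves induced by the pathway and block it as feedback inhibitors. In the mouse, Bmp4 and Bmp7 are both needed for lens induction, and the type I receptors Bmpr1a and Acvr1 act there with overlapping roles. TGF-beta signalling in lens epithelium is best known from the epithelial-to-mesenchymal transition of some cataracts.

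Markers were read first as a check of the lens label. All 9 lens markers were higher in lens than in whole body at each of the 4 stages. Their summed level was 1181 to 1347 FPKM at E10.5, 4502 to 7341 at E12.5, 18457 to 20900 at E14.5 and 29674 to 37520 at E16.5. In whole body it was 73.4 to 75.4 FPKM. Cryab, Mip, Bfsp1 and Lim2 made up most of the E16.5 sum, with means of 7143, 7353, 9463 and 6011 FPKM. At E16.5 against E10.5, 8 of the 9 were higher and Pax6 was lower (means of 318 and 450 FPKM). The rising sum is therefore not a measure of lens purity. Markers of other cell types were also read. At E10.5, 9 of 10 macrophage and 7 of 10 endothelium markers were higher than whole body, and 1 endothelium marker was lower. Higher too were 4 of 6 neural retina and 3 of 3 pigment cell markers. At E12.5, 9 macrophage, 5 neural retina, 3 pigment cell and 1 endothelium markers were higher, and 1 neural retina marker was lower. No mesenchyme or erythroid marker was higher at either stage, and 2 of 8 surface epithelium markers were, at E10.5. The summed level of 10 periocular mesenchyme markers was 2355 FPKM in replicate 3 of E10.5, against 381 and 356 FPKM in replicates 1 and 2. Its collagen markers Col1a1 and Col3a1 made up most of that sum, with maxima of 1273 and 691 FPKM. Foxc1 (33.3 to 39.1 FPKM), Twist1 (18.7 to 24.3), Pdgfra (108 to 124) and Tfap2b (14.4 to 19.5) varied much less over the 3 E10.5 libraries. At E12.5 the mesenchyme sum was 995 FPKM in replicate 1, against 461 and 379 FPKM in replicates 2 and 3. These 2 libraries have the highest mesenchyme sums of the lens. The early steps of Bmp4, Tgfbr2 and Id3, and the counts of called members that moved, are also given without them. The E12.5 replicate 1 library also had the highest macrophage, endothelium and erythroid sums of its stage and the lowest lens sum, at 4502 FPKM. At E12.5 against E10.5, 5 of 8 surface epithelium markers were lower (sums of 19.4 to 39.4 against 208 to 285 FPKM). At that step 5 of 10 endothelium markers were lower and 1 higher, as were 3 and 1 of 6 neural retina markers and 3 and 1 of 10 mesenchyme markers, 1 of 10 macrophage markers was higher, and of 7 erythroid markers 1 was lower and 2 were higher. The part of these markers' cells in the changes of the members was not tested. Nor was their part in the E10.5 levels of Bmp7, Id3 and Tgfbr2 above whole body. Relative to the E12.5 lenses, the E14.5 lenses had lower levels of 10 of 10 macrophage markers (sums of 5.50 to 16.0 against 93.7 to 185.0 FPKM). Lower too were 9 of 10 endothelium markers (68.6 to 137 against 257 to 514 FPKM) and 9 of 10 mesenchyme markers (181 to 210.0 against 379 to 995 FPKM). The mesenchyme marker Pdgfra was higher, at 171 to 185 FPKM at E14.5 against 107 to 128 FPKM at E12.5. It made up most of the E14.5 mesenchyme sum, so that sum understates the fall of the 9 lower markers. Between the same stages 7 of 7 erythroid, 6 of 6 neural retina and 3 of 3 pigment cell markers were also lower at E14.5, while of 8 surface epithelium markers 3 were lower and 1 higher. Of all these markers only Krt14, a surface epithelium marker, was at 0 in every E14.5 library, and none was at 0 in every E12.5 library. In bulk RNA, fewer cells of a type and less RNA per cell cannot be told apart.

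**Figure D1:**
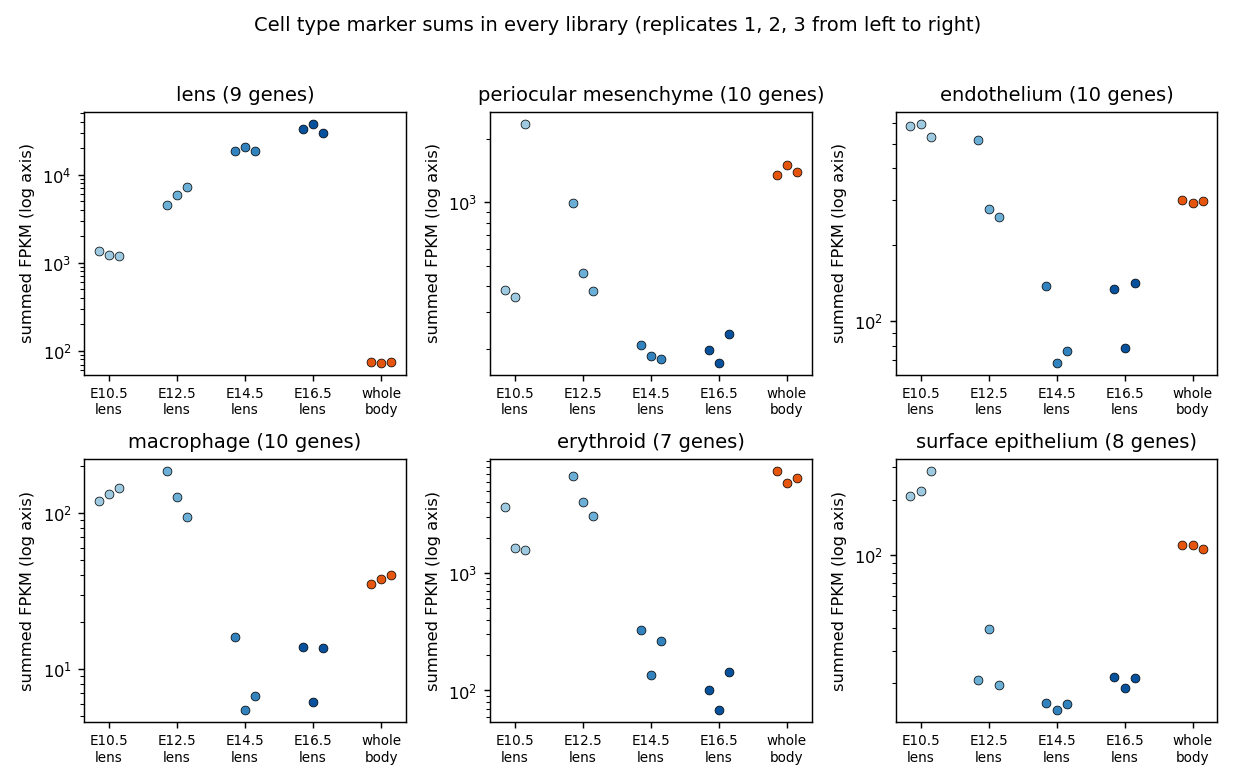
Summed FPKM of the marker genes of lens, periocular mesenchyme, endothelium, macrophage, erythroid cells and surface epithelium (log axes), 1 point per library, by group; lens stages run from E10.5 to E16.5 with whole body last. Lens markers reached 29674 to 37520 FPKM at E16.5, while the macrophage sum was 5.50 to 16.0 FPKM at E14.5 and 93.7 to 185.0 FPKM at E12.5.

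All 10 members differed among the 4 lens stages (limma's moderated F test, Benjamini-Hochberg adjusted p under 0.05), where 77.3% of all genes tested did, so the count is to be read beside that background. The adjusted p ran from 2.13e-08 for Id2 to 0.0144 for Smad6. At E12.5 against E10.5, 1 member was higher, 6 were lower and 3 were not called, beside 29.5% higher and 26.0% lower among all genes (55.5% called). Their median log2 fold change was -0.66, beside 0.01 for all genes tested. At E14.5 against E12.5, 2 were higher and 4 were lower (21.2% and 22.4% of all genes, 43.7% called), with a median of -0.27 beside -0.01. At E16.5 against E14.5 only Id1 was called, and it was higher (5.97% of all genes higher and 4.03% lower, 10% called). That count of 1 is not firm: without the E12.5 replicate 1 library 3 members were called, Id1, Bmp4 and Bmp7, and 2 were called without E10.5 replicate 1 or 3, E12.5 replicate 3 or E16.5 replicate 2 or 3. Over the whole course, E16.5 against E10.5, Bmpr1a, Id1 and Id2 were higher and Bmp4, Acvr1, Tgfbr2 and Id3 were lower. Among all genes 37.2% were higher and 36.7% lower (73.9% called). Without the 2 lens libraries with the highest mesenchyme sums, 2 members were higher and 3 lower at E14.5 against E12.5 (35.1% of all genes called). At E16.5 against E10.5, 3 were then higher and 5 lower (71.8% called).

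Set against whole body, 2 members were higher and 2 lower at E10.5, beside 24.6% and 31.2% of all genes (55.7% called). For E12.5 the counts were 0 higher and 5 lower, beside 32.3% and 37.1% (69.4% called), and without whole-body replicate 1 or 3 only 3 members were called. Without the 2 lens libraries with the highest mesenchyme sums, the E12.5 counts were 1 higher and 4 lower (69% of all genes called). For E14.5 they were 1 and 7, beside 35.7% and 42.6% (78.3% called), and for E16.5 3 and 4, beside 36.8% and 43.4% (80.2% called). The members' median log2 fold change was -0.05, -0.40, -0.59 and -0.20 at the 4 stages, beside -0.04, -0.04, -0.10 and -0.11 (medians) over all genes tested. These 4 comparisons share the whole-body libraries. Crystallins, the structural proteins of the lens, are abundant in lens RNA, and leaving them out with totals made equal moved the split of calls. Members were then 0 higher and 7 lower at E12.5, 1 and 9 at E14.5 and 1 and 7 at E16.5 against whole body. Between stages they were 1 and 8 at E12.5 against E10.5, 2 and 6 at E14.5 against E12.5, 1 and 0 at E16.5 against E14.5, and 2 and 7 at E16.5 against E10.5. Of all genes called at E14.5 against E12.5, 21.5% were then higher in place of 48.7%, and at E16.5 against whole body 28.0% in place of 45.9%. Fold changes here and below are on the log2(FPKM + 1) scale, given ± SE, and understate the change of genes with low levels. Adjusted p-values are limma's with Benjamini-Hochberg adjustment over all 14532 genes.

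**Figure D2:**
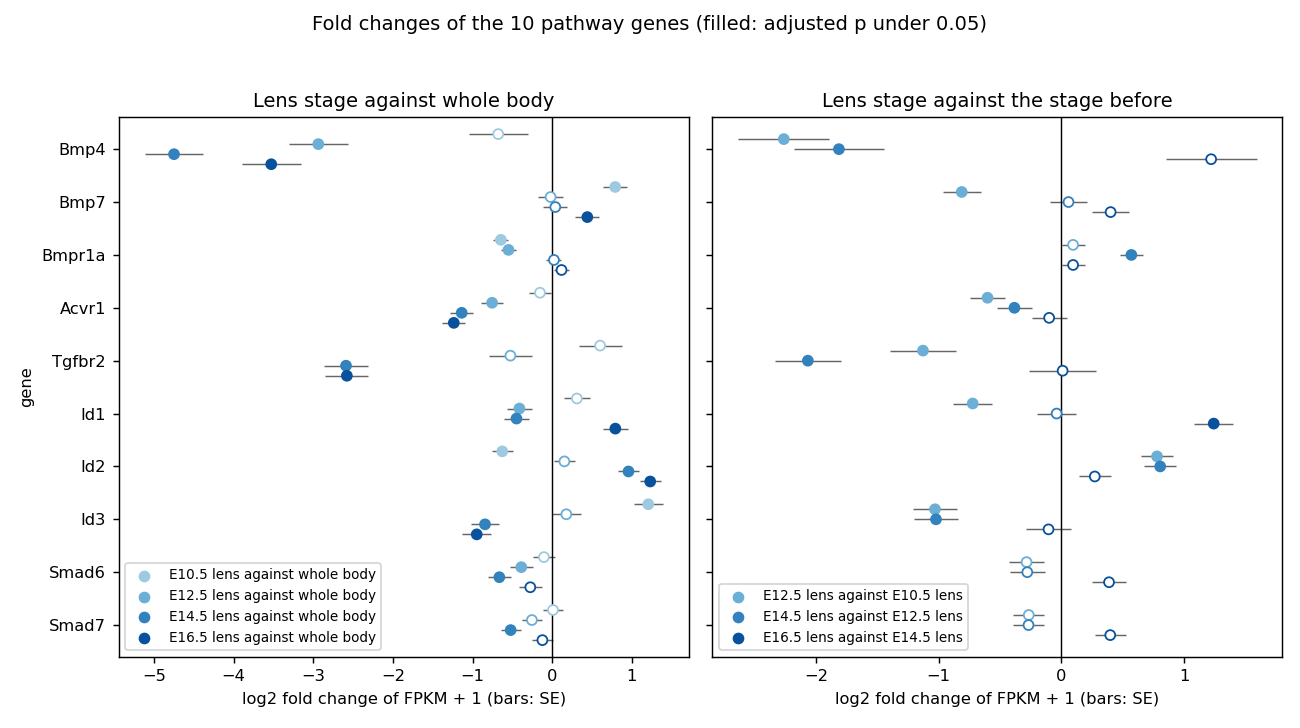
Log2 fold change of each member (log2(FPKM + 1) scale, bars are SE from limma) in each lens stage against whole body and against the stage before. Bmp4 and Tgfbr2 have the lowest values among the members at E14.5 against whole body, at -4.75 and -2.59, and Id2 the highest at E16.5 against whole body, at 1.23.

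Bmp4 and Tgfbr2 were the members with the largest falls in lens over the course. The RefSeq promoter table held 7 of the 10 members, Bmp4, Bmpr1a, Acvr1, Tgfbr2, Id2, Id3 and Smad6. The 250 bases upstream of the annotated starts of Bmp4 (GRCm38.p6 build, chr14:46390670-46390919, minus strand) and Tgfbr2 (chr9:116175364-116175613, minus strand) are shown. These genes were picked for the size of their falls and not for a shared course. Capitals mark CAGCC and CAGAC, motifs bound by Smads, on either strand (GGCTG and GTCTG on the other). The palindrome GGCGCC was also searched, and no matches overlap in these 2 windows.
Bmp4: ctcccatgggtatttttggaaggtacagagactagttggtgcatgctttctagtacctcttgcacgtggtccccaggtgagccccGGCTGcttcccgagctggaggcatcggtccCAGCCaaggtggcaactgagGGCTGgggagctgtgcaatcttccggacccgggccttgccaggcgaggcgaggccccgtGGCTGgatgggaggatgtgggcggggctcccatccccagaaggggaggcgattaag
Tgfbr2: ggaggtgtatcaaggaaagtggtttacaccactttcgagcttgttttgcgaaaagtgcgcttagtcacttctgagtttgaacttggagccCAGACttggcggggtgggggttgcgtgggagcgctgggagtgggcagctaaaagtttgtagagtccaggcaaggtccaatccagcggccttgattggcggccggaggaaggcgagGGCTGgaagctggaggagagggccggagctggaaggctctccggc
On both strands together, the Bmp4 window held CAGCC 4 times and neither of the others. The Tgfbr2 window held CAGCC 1 time and CAGAC 1 time. Among 32851 promoter windows of the same length, 61.3% held the first motif on either strand, 42.2% the second and 9.60% the palindrome. A match is a string of letters and not a shown binding site.

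Bmp4 encodes a BMP ligand and lies on chromosome 14 at 46383520 to 46390669 (mm10, minus strand). Its level was 12.3, 16.3 and 25.5 FPKM in the E10.5 lenses, 3.98, 3.82 and 1.30 FPKM at E12.5, a listed 0, 0.09 and 0.17 FPKM at E14.5, and 3.41, 1.58 and 0.42 FPKM at E16.5, against 26.2, 28.8 and 29.6 FPKM in whole body. No lens library reached the lowest whole-body level, and the E10.5 libraries were above all later lens libraries. The level was lower at E12.5 than at E10.5, with a log2 fold change of -2.26 ± 0.37 and an adjusted p of 0.000123. It was lower again at E14.5 than at E12.5, by a log2 fold change of -1.81 ± 0.37 (adjusted p = 0.00117). Without the 2 libraries with the highest mesenchyme sums these log2 fold changes were -2.18 and -1.62, and both were still called. With only reference-matched transcripts summed, the later fall was -0.63 and was not called (adjusted p = 0.232). The higher values at E16.5 than at E14.5 did not pass the test (1.22 ± 0.37, adjusted p = 0.0503), although the libraries did not overlap. Without E16.5 replicate 3 it was 1.64 (adjusted p = 0.00867). With E10.5 replicate 1 or 3 or E12.5 replicate 1 or 3 left out, the value of 1.22 had an adjusted p of 0.0267 to 0.0484. All of the Bmp4 level at E16.5 came from 1 assembled variant that shares a splice junction with the reference transcript ENSMUST00000074077. The 2 reference-matched Bmp4 transcripts were at 0 in all 3 E16.5 libraries, so the higher values rest on that variant alone. Neural retina and pigment cell sums were also higher at E16.5 than at E14.5, and ran in the same order as Bmp4 over the 3 E16.5 libraries (18.2, 10.6 and 4.10 FPKM for retina, and 11.8, 6.40 and 3.90 FPKM for pigment cells, against 0.8 to 1.9 and 1 to 2 FPKM at E14.5). What these cells contributed was not tested. At E10.5, Bmp4 was not called against whole body (-0.68 ± 0.37, adjusted p = 0.136), and the 3 lens libraries spread widely. The E10.5 replicate 3 library had the highest Bmp4 of the lens and, within its stage, the highest mesenchyme, neural retina and surface epithelium sums. The retina sums of 114, 183 and 200.3 FPKM and the surface epithelium sums of 208, 222 and 285 FPKM ran in the same order as Bmp4 over the 3 replicates, and the mesenchyme sums did not. What these cells contributed was not tested. An exon of Bmp4 is overlapped by Gm15217 on the opposite strand, and whether the libraries kept strand is not given, so their reads cannot be told apart.

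Bmp7, the other ligand, lies on chromosome 2 at 172868012 to 172940321 (minus strand) and was present at every stage as 1 transcript. It stood at 55.3, 67.6 and 62.0 FPKM at E10.5, 47.0, 31.7 and 27.7 FPKM at E12.5, 35.3, 32.9 and 40.5 FPKM at E14.5, and 49.0, 42.2 and 53.4 FPKM at E16.5, against 36.5, 32.9 and 35.9 FPKM in whole body. The E10.5 libraries were above all others, while the E12.5 and E14.5 libraries overlapped those of whole body. Over the 3 E12.5 replicates, the mesenchyme, endothelium, macrophage, erythroid and neural retina sums ran in the same order as Bmp7. The surface epithelium and pigment cell sums did not. What these cells contributed was not tested. Bmp7 was higher in E10.5 lens than in whole body (0.79 ± 0.15, adjusted p = 0.000489) and lower at E12.5 than at E10.5 (-0.81 ± 0.15, adjusted p = 0.000424). At E16.5 it was again called higher than whole body (0.44 ± 0.15, adjusted p = 0.0158). Without E16.5 replicate 3 that value was 0.37 (adjusted p = 0.0658) and without whole-body replicate 2 it was 0.40 (adjusted p = 0.0548), so the E16.5 call rests on single libraries. It rests on the scaling too. With crystallins left out and library totals made equal, the log2 fold change of Bmp7 was -0.07 at E16.5 and -0.39 at E14.5 against whole body, a change of sign at both stages. Bmp7 stayed between 27.7 and 67.6 FPKM in all lens libraries while Bmp4 was at or below 3.98 FPKM from E12.5 on.

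**Figure D3:**
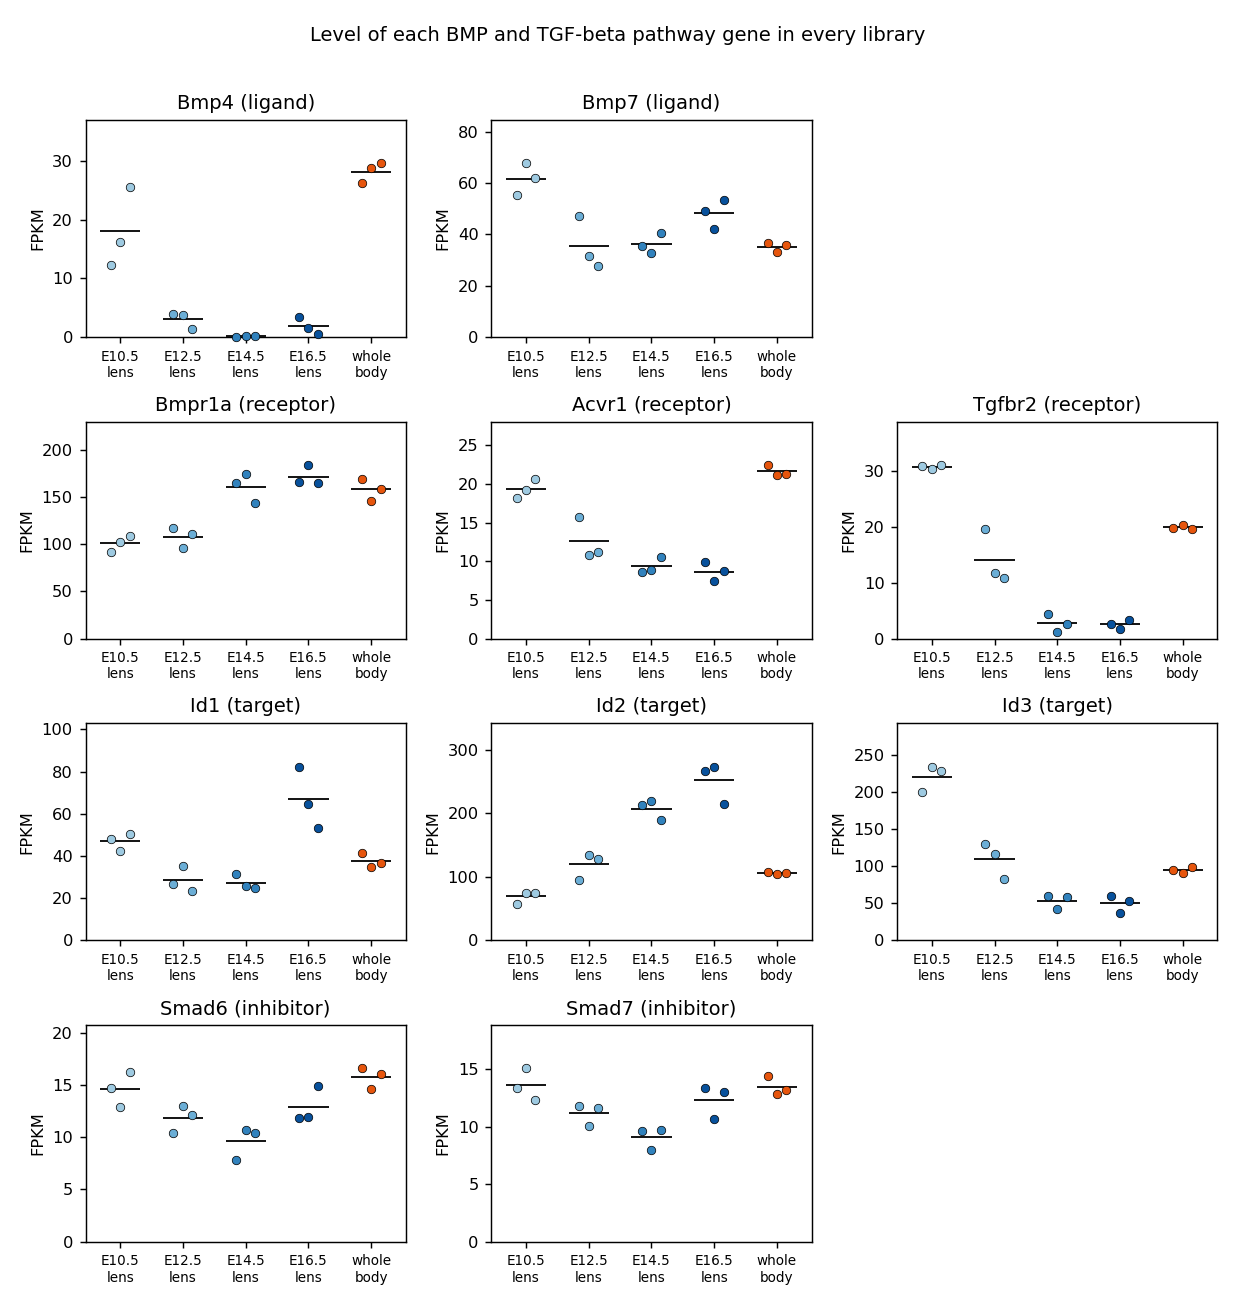
FPKM of each of the 10 members, 1 point per library with the group mean as a line, in lens from E10.5 to E16.5 and in whole body last; axes start at 0 and differ between panels. Bmp4, Acvr1, Tgfbr2 and Id3 are highest in lens at E10.5 and Id2 and Bmpr1a at E16.5, and Id1 stands at 53.2 to 82.4 FPKM at E16.5 and 24.9 to 31.5 FPKM at E14.5.

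Bmpr1a encodes a type I BMP receptor and was the most abundant receptor among the members, on chromosome 14 at 34410734 to 34503341 (minus strand). It stood at 91.8, 102.1 and 109 FPKM at E10.5, 117, 96.6 and 111 FPKM at E12.5, 165, 175 and 143 FPKM at E14.5, and 167, 184 and 165 FPKM at E16.5, against 169.7, 146 and 159 FPKM in whole body. The E10.5 and E12.5 libraries overlapped each other and lay below whole body, and the E14.5 and E16.5 libraries overlapped whole body. Bmpr1a was lower than whole body at E10.5 (-0.64 ± 0.09, adjusted p = 3.89e-05) and at E12.5 (-0.55 ± 0.09, adjusted p = 0.000109). The rise in lens came between E12.5 and E14.5, with a log2 fold change of 0.57 ± 0.09 at E14.5 against E12.5 (adjusted p = 0.000222). That rise was 0.24 (adjusted p = 0.384) when only reference-matched transcripts were summed. At E16.5 against E10.5 Bmpr1a was higher by 0.76 ± 0.09 (adjusted p = 3.15e-06), and under 3 other scalings it was still called higher, by 0.29 to 0.58. Against whole body the values at E14.5 (0.02 ± 0.09, adjusted p = 0.832) and E16.5 (0.12 ± 0.09, adjusted p = 0.258) did not pass the test, and their sign depends on the scaling. At E14.5 the log2 fold change was -0.36 after quantile normalization, -0.42 with crystallins left out and -0.24 with a common median, each called lower.

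The Bmpr1a level was carried by 5 transcripts in the table, and they did not keep the same proportions. The main one, 5707 bases long, is an assembled variant that shares a splice junction with the reference transcript ENSMUST00000049005. It averaged 69.0 ± 4.97, 80.9 ± 10.8, 128 ± 7.36 and 121 ± 4.73 FPKM at the 4 stages in order, and 146 ± 10.54 FPKM in whole body (SD, n = 3). A shorter reference transcript, ENSMUST00000165280 (1945 bases), stood at 16.2, 18.7 and 21.6 FPKM at E10.5, 14.51, 12.9 and 14.6 FPKM at E12.5, 20.5, 18.1 and 11.3 FPKM at E14.5, and 32.8, 32.5 and 29.7 FPKM at E16.5, against 3.32, 1.70 and 0 FPKM in whole body. All 12 lens libraries were above all 3 of whole body for the shorter form, whose share of Bmpr1a was 18.4% at E16.5 and 1.10% in whole body. Single transcripts were not tested, and their FPKM rest on how overlapping reads were shared out. When only transcripts that match the reference were summed, Bmpr1a was higher in lens than in whole body at E10.5 (1.35, adjusted p = 7.43e-05) and at E12.5 (1.13, adjusted p = 0.000232), a reversal of the direction given above. At E14.5 and E16.5 the same sums were higher than whole body by 1.37 and 2.01 (adjusted p = 2.81e-05 and 6.19e-07). Bmpr1a is also overlapped by an exon of the antisense gene Gm17110, and the reads of the 2 genes cannot be told apart without strand.

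**Figure D4:**
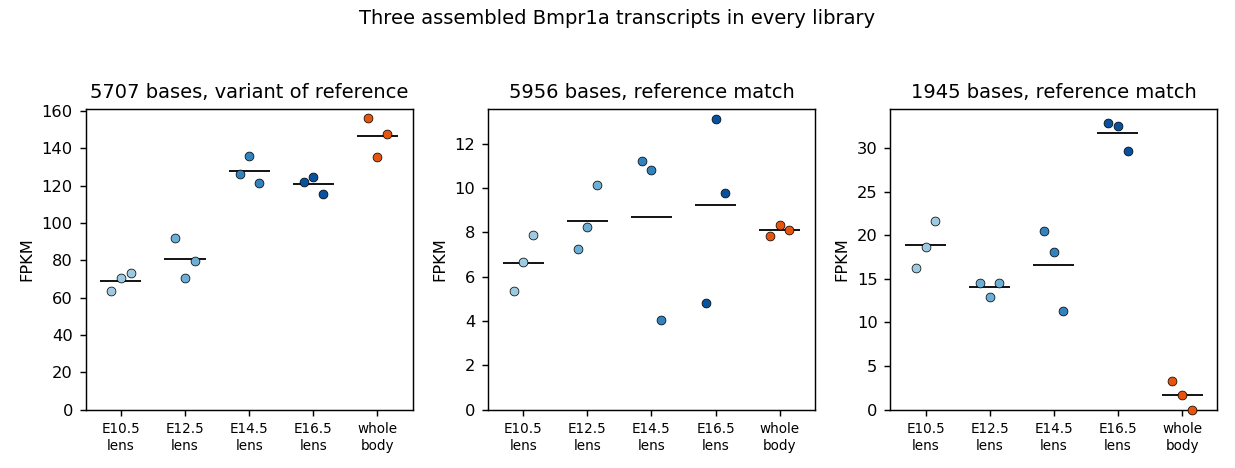
FPKM of the 3 longest Bmpr1a transcripts, 1 point per library with group means (horizontal lines), in lens from E10.5 to E16.5 and in whole body last. The 1945-base reference transcript lies at 11.3 to 32.8 FPKM in the lens libraries and at 0 to 3.32 FPKM in whole body.

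Acvr1, a second type I receptor of the BMP class, lies on chromosome 2 at 58388644 to 58567157 (minus strand) and went the other way. It stood at 18.2, 19.3 and 20.7 FPKM at E10.5, 15.7, 10.8 and 11.2 FPKM at E12.5, 8.55, 8.91 and 10.53 FPKM at E14.5, and 9.90, 7.39 and 8.72 FPKM at E16.5, against 22.5, 21.1 and 21.3 FPKM in whole body. E10.5 libraries lay above all later lens libraries, and whole body above every lens library. It was lower at E12.5 than at E10.5 (-0.60 ± 0.14, adjusted p = 0.00243) and at E16.5 than at E10.5 (-1.08 ± 0.14, adjusted p = 6.34e-06). The further fall at E14.5 against E12.5 (-0.38 ± 0.14, adjusted p = 0.042) is not firm. Without E12.5 replicate 1 it was -0.22 with an adjusted p of 0.213, and without E14.5 replicate 1 or 2 it was -0.33 or -0.36 with an adjusted p of 0.122 or 0.106. It also missed the threshold, with the value unchanged at -0.38, in 5 fits that left out E10.5 replicate 2, E16.5 replicate 3 or any whole-body library (adjusted p = 0.0505 to 0.0573). After quantile normalization it was -0.21 with an adjusted p of 0.182. In E14.5 and E16.5 lens Acvr1 was lower than whole body by log2 fold changes of -1.14 ± 0.14 and -1.24 ± 0.14 (adjusted p = 3.21e-06 and 1.18e-06). Its 5 transcripts shifted between replicates, so the split among them is not described. The E12.5 replicate 1 library had the highest Acvr1 of its stage and also the highest mesenchyme, endothelium, macrophage and erythroid sums. The part of these cells in the Acvr1 level was not tested.

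Tgfbr2 encodes the type II receptor for TGF-beta and lies on chromosome 9 at 116084293 to 116175360 (minus strand). Its level was 31.0, 30.4 and 31.2 FPKM at E10.5, 19.6, 11.7 and 10.9 FPKM at E12.5, 4.33, 1.20 and 2.61 FPKM at E14.5, and 2.63, 1.80 and 3.26 FPKM at E16.5, against 19.9, 20.4 and 19.7 FPKM in whole body. E10.5 was the only stage above whole body, and the E14.5 and E16.5 libraries overlapped each other far below it. The level at E12.5 was lower than at E10.5 (-1.13 ± 0.27, adjusted p = 0.00267), and at E14.5 it was lower than at E12.5 (-2.07 ± 0.27, adjusted p = 3.28e-05), to 0.193 of the E12.5 mean. Leaving out the 2 libraries with the highest mesenchyme sums gave -1.37 and -1.82, both still called. Its whole course was -3.18 ± 0.27 at E16.5 against E10.5 (adjusted p = 5.54e-08). The excess over whole body at E10.5 did not pass the test (0.60 ± 0.27, adjusted p = 0.0724), and with a replicate block it did (adjusted p = 0.0451), as it did without E12.5 replicate 1, E14.5 replicate 1 or E14.5 replicate 2 (adjusted p = 0.0474, 0.0349 and 0.0272). The E12.5 value against whole body was not called (-0.52 ± 0.27, adjusted p = 0.0989), but without E12.5 replicate 1 it was -0.77 (adjusted p = 0.0212), and without E14.5 replicate 2 its adjusted p was 0.0415. Macrophage, endothelium and mesenchyme markers fell between the same stages, and E12.5 replicate 1 had both the highest Tgfbr2 and the highest sums of its stage. The part of these cells in the fall was not tested.

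The 3 Id targets did not share a course. Id1, on chromosome 2 at 152736251 to 152737410 (plus strand), stood at 48.0, 42.1 and 50.5 FPKM at E10.5, 26.8, 35.0 and 23.3 FPKM at E12.5, 31.5, 25.6 and 24.9 FPKM at E14.5, and 82.4, 64.8 and 53.2 FPKM at E16.5, against 41.3, 34.7 and 36.8 FPKM in whole body. All E16.5 libraries exceeded all others, and the E12.5 and E14.5 libraries overlapped. Id1 was lower at E12.5 than at E10.5 (-0.72 ± 0.16, adjusted p = 0.00146), not called at E14.5 against E12.5 (-0.04 ± 0.16, adjusted p = 0.88) and higher at E16.5 than at E14.5 (1.24 ± 0.16, adjusted p = 0.000183). This last step was called under all scalings, at 1.13 to 1.26. At the same step 2 of 6 neural retina markers were higher and 0 of 3 pigment cell markers were called, and both sums, given with Bmp4, ran in the same order as Id1 over the E16.5 libraries. The part of these cells in the Id1 step was not tested. Against whole body it was higher at E16.5 (0.79 ± 0.16, adjusted p = 0.000318), but with crystallins left out the value was 0.28 (adjusted p = 0.14). At E12.5 and E14.5 it was lower than whole body (-0.41 and -0.45, each ± 0.16; adjusted p = 0.0329 and 0.0186). Both calls rest on single libraries. The E12.5 call was lost without E12.5 replicate 1 or 3 or whole-body replicate 1 or 3 (-0.38, -0.28, -0.34 and -0.42; adjusted p = 0.0777, 0.149, 0.115 and 0.0611), and the E14.5 call without E14.5 replicate 2 or 3 or whole-body replicate 1 (-0.41, -0.39 and -0.38; adjusted p = 0.0584, 0.0672 and 0.0739). The smaller excess at E16.5 over E10.5 (0.48 ± 0.16, adjusted p = 0.0133) was not called under 3 other scalings (0.01 to 0.30), nor without E10.5 replicate 2 (0.41, adjusted p = 0.0564) or E16.5 replicate 1 (0.32, adjusted p = 0.0832).

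Id2, on chromosome 12 at 25093799 to 25097140 (minus strand), rose at both of the first steps. It stood at 57.6, 74.0 and 74.6 FPKM at E10.5, 95.5, 134 and 128 FPKM at E12.5, 213, 219.7 and 189 FPKM at E14.5, and 267, 273 and 215 FPKM at E16.5, against 108, 104 and 105.5 FPKM in whole body. Each group of E10.5, E12.5 and E14.5 libraries was apart from the next, while E14.5 and E16.5 overlapped. The log2 fold change was 0.78 ± 0.13 at E12.5 against E10.5 (adjusted p = 0.000144), 0.81 ± 0.13 at E14.5 against E12.5 (adjusted p = 0.000186) and 1.86 ± 0.13 at E16.5 against E10.5 (adjusted p = 6.37e-09). Relative to whole body it was lower at E10.5 (-0.63 ± 0.13, adjusted p = 0.000855), not called at E12.5 (0.15 ± 0.13, adjusted p = 0.305; without E12.5 replicate 1, 0.30 and adjusted p = 0.0336) and higher at E14.5 (0.96 ± 0.13, adjusted p = 7.17e-06) and E16.5 (1.23 ± 0.13, adjusted p = 4.30e-07). Both higher calls held under the 3 other scalings, with 0.52 to 0.70 at E14.5 and 0.71 to 0.99 at E16.5.

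Id3, on chromosome 4 at 136143497 to 136145755 (plus strand), fell at both of those steps. It stood at 199.8, 235 and 229 FPKM at E10.5, 130.3, 116 and 82.3 FPKM at E12.5, 59.5, 42.1 and 57.7 FPKM at E14.5, and 59.2, 36.7 and 53.3 FPKM at E16.5, against 95.5, 90.3 and 99.4 FPKM in whole body. The E10.5 libraries were far above all others, E12.5 overlapped whole body, and E14.5 and E16.5 were below it. Each early step was called, at -1.03 ± 0.18 for E12.5 against E10.5 (adjusted p = 0.000234) and -1.02 ± 0.18 for E14.5 against E12.5 (adjusted p = 0.000402). Without the 2 libraries with the highest mesenchyme sums these were -1.14 and -0.89. Against whole body Id3 was higher at E10.5 (1.21 ± 0.18, adjusted p = 5.07e-05) and lower at E14.5 (-0.84 ± 0.18, adjusted p = 0.000593) and E16.5 (-0.95 ± 0.18, adjusted p = 0.000205). Markers of several other cell types were also lower at E16.5 than at E10.5. Of 10 endothelium markers 9 were lower and 1, Tek, was higher (sums of 78.1 to 142 FPKM at E16.5 and 532 to 596 FPKM at E10.5). Lower markers were 10 of 10 for macrophage, 9 of 10 for mesenchyme, 5 of 6 for neural retina, 6 of 7 for erythroid cells, 5 of 8 for surface epithelium and 2 of 3 for pigment cells. Their part in the fall of Id3 was not tested.

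Set side by side, the Id genes exchanged places. Id3 made up 65.2% ± 1.27, 41.8% ± 8.19, 18.1% ± 3.31 and 13.4% ± 3.40 of the summed FPKM of Id1, Id2, Id3 and Id4 over the 4 stages in order, and 33.3% ± 1.02 in whole body (SD, n = 3). For Id2 the shares were 20.2% ± 1.30, 45.7% ± 8.46, 70.6% ± 3.81 and 67.0% ± 3.82, and 37.2% ± 0.74 in whole body. The Id2 level divided by the Id3 level was 0.31 ± 0.02, 1.15 ± 0.41, 4.02 ± 1.04 and 5.33 ± 1.85 over the same stages, and 1.12 ± 0.05 in whole body. A ratio within a library does not depend on a factor applied to the whole library, but quantile normalization can change it. The summed level of the 4 Id genes varied less, at 339 ± 27.4, 262 ± 26.6, 293 ± 15.3 and 375 ± 44.0 FPKM at the 4 stages and 285 ± 9.72 FPKM in whole body. Id4 contributed 0.63% to 1.93% in lens, against 16.3% in whole body.

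**Figure D5:**
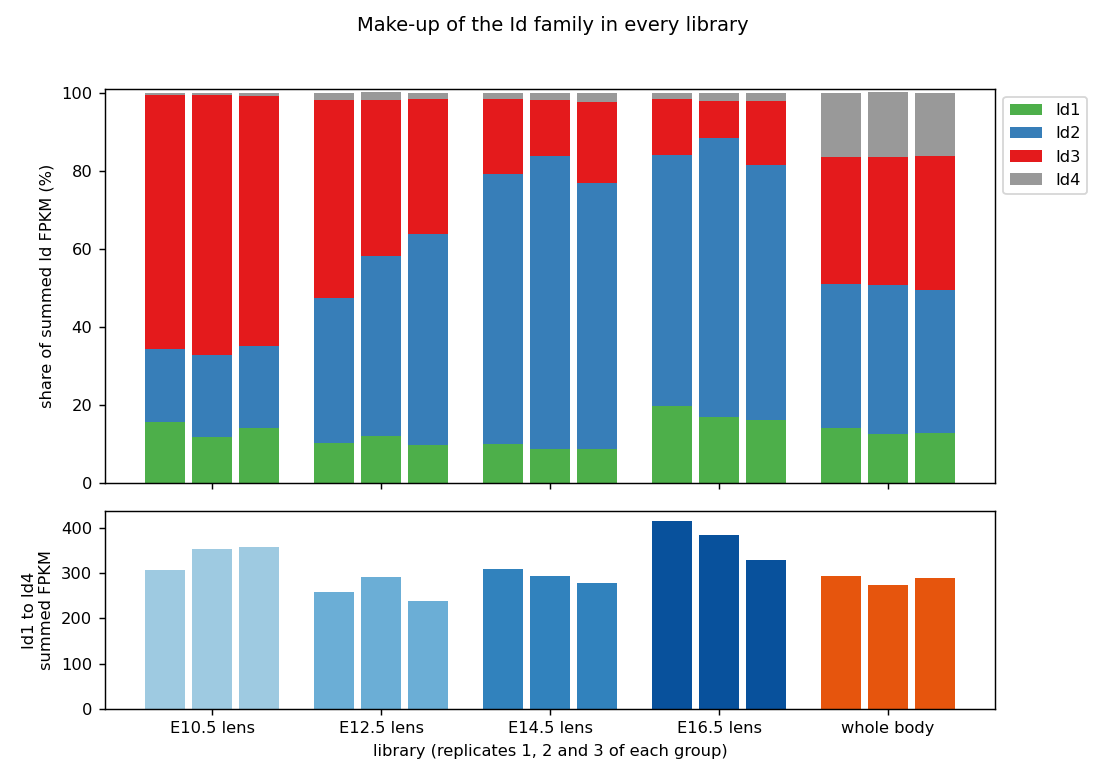
Share of each Id gene in the summed FPKM of Id1, Id2, Id3 and Id4 in percent (upper bars) and that sum in FPKM (lower bars), 1 bar per library, in lens from E10.5 to E16.5 and in whole body last. Id3 leads at E10.5 with 65.2% and Id2 at E14.5 with 70.6% and E16.5 with 67.0%, while in whole body Id2 and Id3 are at 37.2% and 33.3%.

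The inhibitory Smads moved least. Smad6, which blocks BMP-class Smad signalling, lies on chromosome 9 at 63953076 to 64022059 (minus strand). It stood at 14.7, 12.9 and 16.3 FPKM at E10.5, 10.4, 13.0 and 12.2 FPKM at E12.5, 7.83, 10.7 and 10.4 FPKM at E14.5, and 11.9, 11.9 and 14.9 FPKM at E16.5, against 16.6, 14.6 and 16.0 FPKM in whole body. The E12.5 and E14.5 libraries all lay below whole body, and no step between neighbouring stages passed the test. Smad6 was lower than whole body at E12.5 (-0.39 ± 0.14, adjusted p = 0.0249) and at E14.5 (-0.66 ± 0.14, adjusted p = 0.000566), and was not called at E10.5 (-0.10 ± 0.14, adjusted p = 0.564) or E16.5 (-0.27 ± 0.14, adjusted p = 0.089). The E12.5 call was lost without E12.5 replicate 1, whole-body replicate 1 or whole-body replicate 3 (-0.31, -0.35 and -0.37; adjusted p = 0.0924, 0.0794 and 0.0647), and without E16.5 replicate 3 the E16.5 value was called (-0.38, adjusted p = 0.0374). With crystallins left out it was also called at E16.5 (-0.77, adjusted p = 0.000168).

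Smad7 blocks both TGF-beta and BMP signalling and lies on chromosome 18 at 75367529 to 75395935 (plus strand). It stood at 13.4, 15.1 and 12.3 FPKM at E10.5, 11.8, 10.1 and 11.6 FPKM at E12.5, 9.64, 7.93 and 9.73 FPKM at E14.5, and 13.3, 10.7 and 13.0 FPKM at E16.5, against 14.4, 12.9 and 13.1 FPKM in whole body. The E12.5 and E14.5 libraries all lay below whole body. The E12.5 difference was not called (-0.25 ± 0.13, adjusted p = 0.0874). The E14.5 difference was (-0.52 ± 0.13, adjusted p = 0.00159), yet after quantile normalization it was -0.23 with an adjusted p of 0.0974. With crystallins left out, Smad7 was called lower than whole body at E12.5 and both later stages (-0.44, -0.93 and -0.61).

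Of the wider pathway, 56 other genes were listed and 52 were tested. Inhba, Inhbb, Fstl3 and Cer1 were not among the genes tested. At E16.5 against E10.5, 9 of the 52 were higher and 27 lower (17.3% and 51.9%), where 37.2% and 36.7% of all genes were, and the list's median log2 fold change was -0.31 beside -0.01. With crystallins left out 6 were higher and 36 lower, and over all genes 30.5% of calls were then higher in place of 50.3%. At E14.5 against whole body 7 were higher and 39 lower (13.5% and 75.0%, beside 35.7% and 42.6% of all genes), with a median of -1.22 beside -0.10. With crystallins left out the split was 3 and 43, and with a common median 3 and 42. At E14.5 against whole body, 9 of 10 markers each of mesenchyme, macrophage and endothelium were also lower. So were 7 of 7 erythroid, 7 of 8 surface epithelium, 2 of 6 neural retina and 0 of 3 pigment cell markers. Most markers of other cell types were lower at E16.5 than at E10.5 too, as given with Id3. The part of these cells in the counts of the wider pathway was not tested. By role, at E14.5 against whole body, 8 of 10 ligands, 10 of 11 receptors, 8 of 11 Smad genes, 7 of 12 antagonists and 6 of 8 targets were lower, while 2, 0, 2, 2 and 1 were higher.

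Bmper, which encodes a secreted protein that binds BMPs, had the largest fold change of the list at E16.5 against E10.5. Its level averaged 261 ± 27.9 FPKM at E16.5 and 2.57 ± 0.30 FPKM at E10.5 (SD, n = 3), a log2 fold change of 6.20 ± 0.18 (adjusted p = 5.11e-13). It averaged 96.7 ± 28.4 and 208 ± 45.5 FPKM at E12.5 and E14.5, and 9.58 ± 0.89 FPKM in whole body. Tgfb2, a TGF-beta ligand, averaged 127 ± 6.85 FPKM at E16.5 and 26.6 ± 5.36 FPKM at E10.5 (2.23 ± 0.12, adjusted p = 2.61e-10), while Tgfbr2, which encodes a TGF-beta receptor, fell over the same stages. Sostdc1, a BMP antagonist, averaged 1.61 ± 0.72 and 17.8 ± 1.17 FPKM at E16.5 and E10.5 (-2.88 ± 0.19, adjusted p = 2.80e-09). The ligand gene Gdf6 was likewise lower at E16.5 (-3.07 ± 0.28, adjusted p = 1.10e-07). Id4, a further Id gene, was higher (1.40 ± 0.17, adjusted p = 2.08e-06), and Acvrl1, a type I receptor best known in endothelium, was lower (-1.36 ± 0.29, adjusted p = 0.000551). Smaller called changes at E16.5 against E10.5 were those of Bmpr2, a type II receptor for BMPs, at 0.86 ± 0.16, Ski, a repressor of Smad transcription, at 0.54 ± 0.07 (0.07 with crystallins left out, adjusted p = 0.324), and Smad3, a TGF-beta-class Smad, at -0.95 ± 0.10. In the E14.5 lenses, Bmp5, a BMP ligand, was listed at 0 in all 3 libraries, beside 8.52 ± 1.33 FPKM in whole body. Grem1, a BMP antagonist, averaged 0.12 ± 0.21 FPKM in E14.5 lens and 10.9 ± 1.48 FPKM in whole body. Tgfbi, a TGF-beta-induced matrix protein, was lower at E14.5 than in whole body (-4.47 ± 0.21, adjusted p = 6.15e-11) and at E16.5 than at E10.5 (-2.30 ± 0.21, adjusted p = 1.22e-07). Also lower at E14.5 than in whole body were Rgma, a BMP co-receptor (-3.83 ± 0.22, adjusted p = 4.88e-10), Smad1, a BMP-class Smad (-1.31 ± 0.10, adjusted p = 1.32e-08), and Acvr1b, a type I receptor for activins (-0.33 ± 0.09, adjusted p = 0.00245). Bmper (4.29 ± 0.18, adjusted p = 1.50e-11) and Tgfb2 (1.62 ± 0.12, adjusted p = 6.40e-09) were higher there. Tgif1, a repressor of Smad transcription, averaged 60.2 ± 3.26 FPKM in E14.5 lens and 45.4 ± 2.68 FPKM in whole body (0.40 ± 0.10, adjusted p = 0.00284), and the value was -0.03 (adjusted p = 0.805) with crystallins left out. Ctgf, a secreted matrix-associated protein induced by TGF-beta, averaged 17.8 ± 2.94 FPKM in E14.5 lens and 13.9 ± 0.89 FPKM in whole body (0.33 ± 0.14, adjusted p = 0.0368). With crystallins left out Ctgf was at -0.09 (adjusted p = 0.601), and its call was lost without E14.5 replicate 1 or 3 or whole-body replicate 2 or 3 (0.28, 0.25, 0.31 and 0.30).

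Likeness of pattern was read as Pearson's r of log2(FPKM + 1) over the 15 libraries, among 12484 genes, and is a description with no p. Libraries of 1 group share stage and tissue, so few independent patterns underlie these values. The 3 genes most like Tgfbr2 were Tmem255a (r = 0.99), Icam1 and Rcsd1, and those most like Id3 were Clec1b, Rps6ka1 and Grrp1 (0.98 each). Id2 was most like Mapk8ip1, Ubl3 and Myo18b (0.99 each), and Bmp4 was most like Slc16a10, Foxo4 and Atoh8 (0.98 to 0.99). Bmpr1a was closest to Tmod2 (0.96), Stau2 and Ephb3, Acvr1 to Casp2 (0.99), Fgf13 and Ccdc34, and Bmp7 to Gm36936 (0.91), Gcom1 and Shfm1. Id1 was closest to Kifc3 (0.92), Fabp5 and Vstm2b, Smad6 to Zfp689 (0.88), Smad1 and Bag3, and Smad7 to Plcg2 (0.88), Anxa2 and Stim1. Among the members, Tgfbr2 and Id3 had alike patterns (r = 0.92) and Tgfbr2 and Id2 opposite ones (r = -0.96). Id1 was near 0 with Id3 (r = 0.01).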

How the data were processed

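RNA-seq was made from pooled lenses of 4 stages and from whole embryos, with 3 libraries in each of 5 groups. The authors deposited FPKM per assembled transcript, and per the submitters' processing notes the tools were Cuffnorm, Cufflinks, TopHat2 2.0.9 and Trimmomatic, with genome mm10. The order of steps, the normalization setting, the strand of the libraries and the sequencing depth are not given in the sources used here, so no precision that needs depth is given. Every one of the 48306 transcripts reached 1 FPKM in at least 2 libraries. Library FPKM sums ran from 707562 to 1629915.

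A gene's value is the summed FPKM of all transcripts with its symbol, without 172 antisense transcripts (class x). Of 14615 symbols, 80 did not reach 1 FPKM in at least 3 libraries, and 3 that were listed at 0 beside a replicate of at least 50 FPKM were left out. The remaining 14532 were tested on log2(FPKM + 1) with limma 3.58.1 (R 4.3.3), all 15 libraries in 1 fit with a trended prior and 10 residual degrees of freedom. A call is a Benjamini-Hochberg adjusted p under 0.05. The labels name biological replicates of pooled lenses, so p-values measure the spread between these pools. GENCODE M21, also on mm10, gave coordinates and held 99.1% of the 30879 reference transcripts in the table. Figures used matplotlib 3.10.9 and tables pandas 2.3.3 in Python 3.11.15.

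The members, the gene lists and the markers were chosen with earlier results of these data known. Named genes were all members and, in each role of the wider pathway, the called genes with the highest and lowest fold change at E16.5 against E10.5 and at E14.5 against whole body, with at least 5 FPKM in the higher group. The 3 genes most like each member were named as well. Alternatives were a pseudocount of 0.1, no filter, 3 other scalings, reference-matched transcripts only, fits limited to the groups compared, a replicate block, no trend, leaving out each library, and, chosen after seeing the data, leaving out the 2 libraries with the most mesenchyme markers. No replicate block was in the model, since the labels do not say what replicate numbers share.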

Additional observations from a re-analysis of the deposited data

Results flagged for a closer look

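In each of 3 target genes the lens differed from whole body in opposite directions at different stages, and limma called the difference between those stages (Benjamini-Hochberg adjusted p over all genes). The stage pairs were picked for their opposite calls and are the stage contrasts already given above, so they add no support to them. Id1 was higher than whole body at E16.5 and lower at E14.5, and E16.5 exceeded E14.5 by a log2 fold change of 1.24 ± 0.16 (adjusted p = 0.000183). Id2 was higher than whole body at E16.5 and lower at E10.5, and the stages differed by 1.86 ± 0.13 (adjusted p = 6.37e-09). Id3 was lower than whole body at E16.5 and higher at E10.5, and the stages differed by -2.16 ± 0.18 (adjusted p = 4.81e-08). These stage differences kept their direction and their call under all scalings tried. The higher call of Id1 at E16.5 against whole body was lost with crystallins left out, at 0.28 with an adjusted p of 0.14. Its lower call at E14.5 was lost without E14.5 replicate 2 or 3 or whole-body replicate 1 (-0.41, -0.39 and -0.38; adjusted p = 0.0584, 0.0672 and 0.0739).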

How the results depend on the processing

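After crystallins were removed and totals equalised, the median gene shifted by -0.19, -0.42 and -0.50 (log2) against whole body for E12.5 and the later stages in order, and by -0.45 at E16.5 against E10.5; a common median shifted E14.5 against whole body by -0.25 and quantile normalization by 0.11. The sign turned for Bmp7 against whole body (crystallins left out, -0.391 for E14.5 and -0.074 for E16.5) and for Bmpr1a (E14.5: -0.36 quantile, -0.42 crystallins left out, -0.24 common median; E16.5: -0.35 quantile, -0.41 crystallins left out). With reference-matched transcripts only, Bmpr1a turned to 1.35 at E10.5 and 1.13 at E12.5 against whole body.

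Counts of members called moved by over 1.5 times in these fits. At E10.5 against whole body, fitting only the groups compared called 7 members in place of 4. At E12.5 against whole body, leaving out 1 library gave 3 to 6 members, with 3 without whole-body replicate 1 or 3. At E14.5 against E12.5, reference-matched transcripts gave 3 members in place of 6. At E16.5 against E14.5, 2 members were called with a pseudocount of 0.1, with quantile normalization and without the trend, 1 to 3 when 1 library was left out, and 3 without the libraries with most mesenchyme markers. The causes were not tested. Replicate numbers were not taken as pairs, since the labels do not say what they share. Deviations of same-numbered libraries correlated at -0.0946 to 0.2373 over 30 pairs, with 4 over 0.1. These values do not decide whether the libraries were paired. The replicate block changed only Tgfbr2 at E10.5 against whole body (0.60, adjusted p = 0.0451), so that 5 members were called there in place of 4.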
